A study of Mus musculus with 13 samples.

Results

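The 7 genes described here encode receptors of the common gamma chain cytokine family, and they were taken by symbol from a table of 18649 genes measured by RNA-seq in mouse splenic CD4 T cells. All 7, Il2ra, Il2rb, Il2rg, Il15ra, Il7r, Il4ra and Il21r, were found, and all 7 passed the filter on low values that left 14177 genes for testing. The tested populations were PD1hi cells (CD4+ cells with much surface PD-1 and no signal of a GFP reporter for Foxp3, 3 libraries) and regulatory T cells (Treg: CD4+, GFP-positive and PD-1-negative, 5 libraries). Conventional T cells (Tconv: CD4+, negative for both, 5 libraries) served as their baseline. All 3 populations were sorted from spleen, so they share the reporter, and no treatment is named for any of them. The Treg gate leaves out Foxp3+ cells that carry PD-1. The sources used here do not give the strain, sex and age of the mice, the reporter construct or the number of animals behind a library. The libraries come from experiments 3, 5 and 6, each of which holds all 3 populations, and 4 libraries are titled as replicates of another of the same experiment and population.

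Cytokines of this family act through receptors that share the gamma chain, Il2rg. Il2rb is the beta chain of the IL-2 and IL-15 receptors, and Il2ra and Il15ra are their private alpha chains, which raise the affinity for each cytokine. Il7r, Il4ra and Il21r pair with the gamma chain to bind IL-7, IL-4 and IL-21, and the receptors signal through the kinases Jak1 and Jak3 to STAT factors. In T cells IL-2 sustains regulatory cells, IL-7 sustains resting cells, and IL-4 and IL-21 act in help to B cells.

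Libraries held 15971126 to 24216463 reads in genes. Levels are scaled counts, which are read counts divided by a size factor of the library, as deposited by the authors, less an added 1. Pdcd1, which encodes PD-1, averaged 37372 ± 3290 in PD1hi, 1955 ± 38.5 in Treg and 1132 ± 136 in Tconv (SD, n = 3 experiments each). Foxp3 averaged 106 ± 33.4 in PD1hi, 15889 ± 513 in Treg and 291.5 ± 35.8 in Tconv, and Cd4 averaged 40736 ± 5837, 17161 ± 1945 and 28067 ± 1638 in the same order, so the sorted markers follow the labels. Some libraries stood apart. The second Treg library of experiment 3 differed from the first with a chi-square of 73.5 per degree of freedom, where sampling noise alone gives about 1, against 7.768 to 9.047 in the other pairs titled replicate, and it was the lowest of the 5 Treg libraries for 6 of the 7 receptors. The PD1hi library of experiment 6, the shallowest, was the lowest of the 3 PD1hi libraries for 6 of the 7. It differed from those of experiments 3 and 5 with a chi-square of 66.2 and 59.51 per degree of freedom, against 22.32 between those. Library pairs titled replicate were averaged, so each population has n = 3. Each change is a log2 difference of log2(scaled count + 1) with its standard error (SE), tested by limma over all 14177 genes and called at a Benjamini-Hochberg adjusted p under 0.05. Whether experiments or replicate libraries used separate animals is not said in the labels, so p-values here reflect only how these samples spread, and some of that spread may be technical.

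In PD1hi against Tconv, Il2rb was higher, 5 of the 7 receptors were lower, and Il15ra did not pass the test. Over all genes tested, 26.1% were called between these populations, 14.2% being higher and 11.9% lower. In PD1hi against Treg, 6 of the 7 were lower and Il15ra did not pass, where 16.5% of all genes were called, 8.16% higher and 8.39% lower. In Treg against Tconv, Il2ra and Il2rb were higher, Il7r was lower and the other 4 did not pass, where 14.4% of all genes were called, 8.73% higher and 5.66% lower. The median log2 difference of the 7 receptors was -0.72 in PD1hi against Tconv, -0.95 in PD1hi against Treg and 0.27 in Treg against Tconv, beside medians of 0.00, -0.01 and 0.01 over all genes tested. With libraries rescaled to equal totals, the median of all genes in PD1hi against Tconv moved to 0.14 and the share of called genes that were higher to 65.4%, against 54.4% with the deposited scaling. The receptor calls under that scaling were the same except for Il15ra, given with that gene. The comparisons share samples, so their counts are not separate results. In these bulk libraries, fewer cells of a type and less RNA per cell cannot be told apart.

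**Figure D1:**
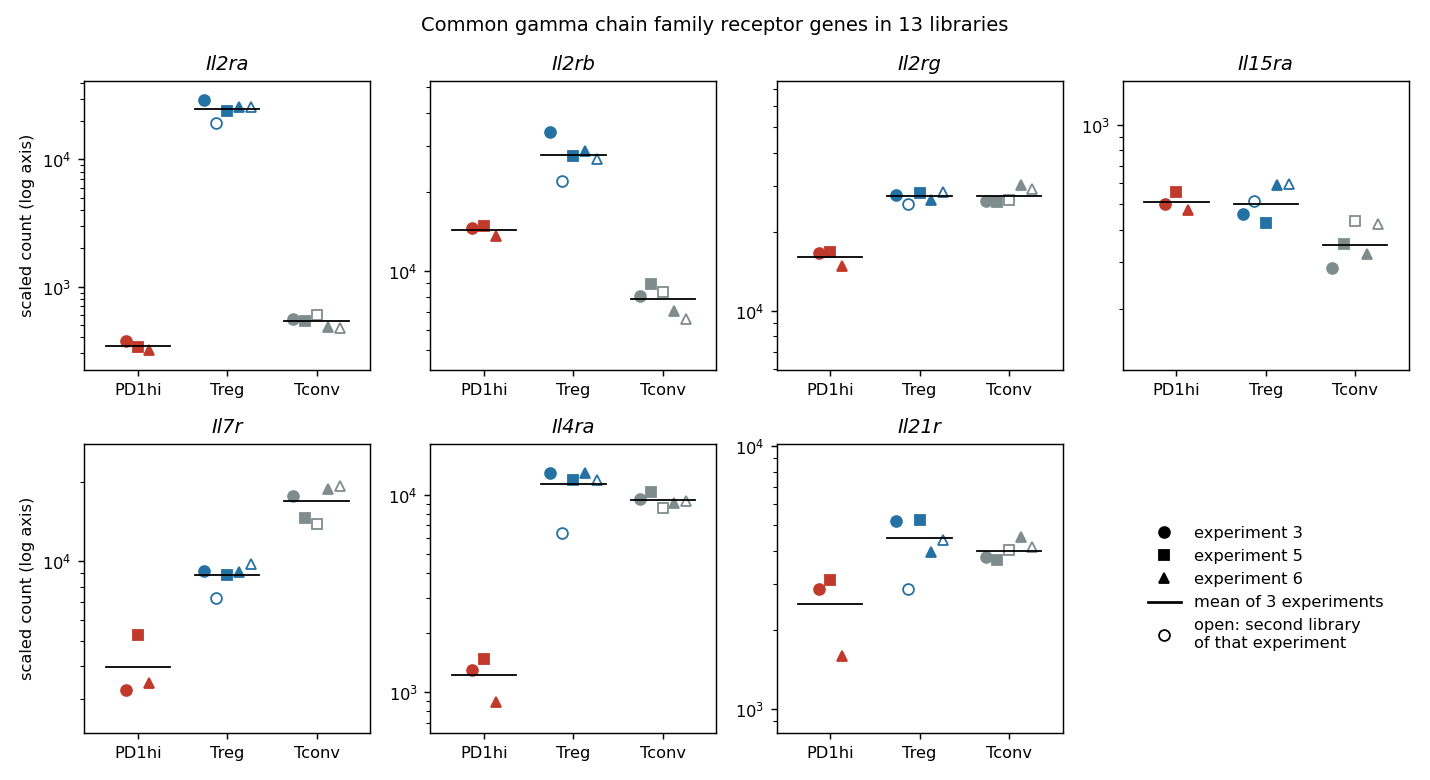
Scaled counts of the 7 receptor genes in each of the 13 libraries on log axes that differ between panels, with PD1hi in red, Treg in blue and Tconv in grey; circles, squares and triangles are experiments 3, 5 and 6, open symbols are second libraries and the bar is the mean of 3 experiments. Il2ra lies between 19226 and 29468 in the 5 Treg libraries and between 315.3 and 597.2 in all others, whereas Il15ra spans 286.7 to 598.2 over all 13.

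Il2ra, the IL-2 receptor alpha chain (CD25), set Treg apart from both other populations and was lowest in PD1hi. Its scaled count was 377.2, 338.5 and 315.3 in the PD1hi libraries of experiments 3, 5 and 6. In Treg it was 29468 and 19226 in experiment 3, 23905 in experiment 5, and 25982 and 25628 in experiment 6. In Tconv it was 559.5 in experiment 3, 542.3 and 597.2 in experiment 5, and 481.9 and 471.2 in experiment 6. No library of one population overlapped those of another. The log2 difference was -6.17 ± 0.13 in PD1hi against Treg, or 71.8-fold lower (adjusted p = 1.63e-10), and 5.53 ± 0.13 in Treg against Tconv (adjusted p = 5.83e-10). The smaller difference between PD1hi and Tconv, -0.64 ± 0.13 (adjusted p = 0.00359), had the same sign in all 3 experiments, where it ran from -0.75 to -0.57. Foxp3 was also called lower in PD1hi than in Tconv (-1.50 ± 0.22, adjusted p = 0.000356), at means of 106 and 291.5. The part of Foxp3+ cells left in either sort in this Il2ra difference was not tested.

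The 300 bases around the start of Il2ra (chr2:11642542-11642841, plus strand, GRCm38.p6, RefSeq) are shown because this gene had the widest range of the 7. They are 42.7% GC with 3 CpG dinucleotides. The window was searched on both strands for motif letters of STAT5 (TTCNNNGAA), STAT6 (TTCNNNNGAA), ETS factors (CCGGAAGT) and forkhead factors (TGTTTAC). Matches would stand in capitals, and none of these letters occurred. Of 32851 RefSeq promoters of the same length, 8.30%, 6.95%, 3.89% and 3.65% hold each motif in that order.
Il2ra: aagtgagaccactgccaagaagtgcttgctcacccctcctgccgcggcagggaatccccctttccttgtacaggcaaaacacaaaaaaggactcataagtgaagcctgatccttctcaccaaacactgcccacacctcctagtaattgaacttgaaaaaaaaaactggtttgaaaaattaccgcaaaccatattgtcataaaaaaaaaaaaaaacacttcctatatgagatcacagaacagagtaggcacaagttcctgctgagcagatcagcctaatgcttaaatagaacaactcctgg

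Il2rb, the beta chain shared by the IL-2 and IL-15 receptors, was ordered Treg, PD1hi, Tconv with no overlap between the libraries of any pair of populations. Scaled counts were 14655, 14852 and 13637 in PD1hi of experiments 3, 5 and 6. In Treg they were 33733 and 21949 in experiment 3, 27483 in experiment 5, and 28710 and 26773 in experiment 6. In Tconv they were 8061 in experiment 3, 8958 and 8341 in experiment 5, and 7040 and 6589 in experiment 6. It was the only receptor of the 7 that was called higher in PD1hi than in Tconv, by 0.88 ± 0.12 (adjusted p = 0.000223), or 1.84-fold. It was lower in PD1hi than in Treg (-0.95 ± 0.12, adjusted p = 0.00019) and higher in Treg than in Tconv (1.83 ± 0.12, adjusted p = 2.16e-06). NK cells and some CD8 T cells are known for high Il2rb. The summed scaled count of 8 markers of CD8 T and NK cells was 2548 to 3803 in PD1hi, 1024 to 1475 in Treg and 5195 to 7589 in Tconv. Nkg7 made up most of the sum in PD1hi, with a median of 2637 there, 613.2 in Treg and 3663 in Tconv. Among them Cd8a stood at a median of 5.12 in PD1hi, 3.07 in Treg and 3.96 in Tconv. In the same order of populations, Cd8b1 had medians of 106.6, 286.5 and 409.65, and Klrb1c of 243.5, 135.75 and 995.0. Klrd1 had 82.6, 39.3 and 339.9, and Gzma 96.0, 81.8 and 130.85. Ncr1 and Klra8 were low, at 15.2, 30.2 and 21.8 and at 0, 2.82 and 0.86. None of these 8 markers of CD8 T and NK cells lacked reads throughout a population.

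Il2rg, the gamma chain itself, was lower in PD1hi and did not differ detectably between Treg and Tconv. The PD1hi libraries of experiments 3, 5 and 6 held 16660, 16811 and 14772. Treg held 27681 and 25436 in experiment 3, 28054 in experiment 5, and 26395 and 28427 in experiment 6, and Tconv held 26320, then 25977 and 26395, then 30205 and 29036 in the same order of experiments. Every PD1hi library lay below every other library, and those of Treg and Tconv overlapped. The difference was -0.77 ± 0.12 in PD1hi against Tconv (adjusted p = 0.000496) and -0.77 ± 0.12 in PD1hi against Treg (adjusted p = 0.000704). Treg minus Tconv was 0.00, with a 95% interval of -0.26 to 0.26 (adjusted p = 1). In the GENCODE M21 annotation a protein-coding model, Gm20489, overlaps Il2rg on the same strand and is not listed in the table, so their reads cannot be told apart, and the same holds for Gm37881 at Il2ra.

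Il15ra, the IL-15 receptor alpha chain, varied least between the populations. Its scaled count was 499.1, 556.7 and 474 in PD1hi of experiments 3, 5 and 6. In Treg it was 457.8 and 515.1 in experiment 3, 422.2 in experiment 5, and 590.1 and 598.2 in experiment 6. In Tconv it was 286.7 in experiment 3, 352.3 and 431.9 in experiment 5, and 322.0 and 418.2 in experiment 6. The PD1hi libraries all lay above the Tconv libraries, whereas Treg overlapped both. PD1hi minus Tconv was 0.55 ± 0.19 (adjusted p = 0.052). It was not called there, but it was called with libraries rescaled to equal totals (0.70, adjusted p = 0.0182), with all 13 libraries entered one by one (0.53, adjusted p = 0.0468), with a minimum mean scaled count of 50 (adjusted p = 0.048) and without PD1hi of experiment 6 (0.60, adjusted p = 0.046). PD1hi minus Treg was 0.04 (95% interval -0.38 to 0.45, adjusted p = 0.931) and Treg minus Tconv 0.52 (0.10 to 0.93, adjusted p = 0.105), so differences inside those intervals were not detectable. Il15ra is the neighbouring protein-coding gene of Il2ra on chromosome 2, and in Treg against Tconv these neighbours differed by 0.52 and 5.53 on the log2 scale.

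**Figure D2:**
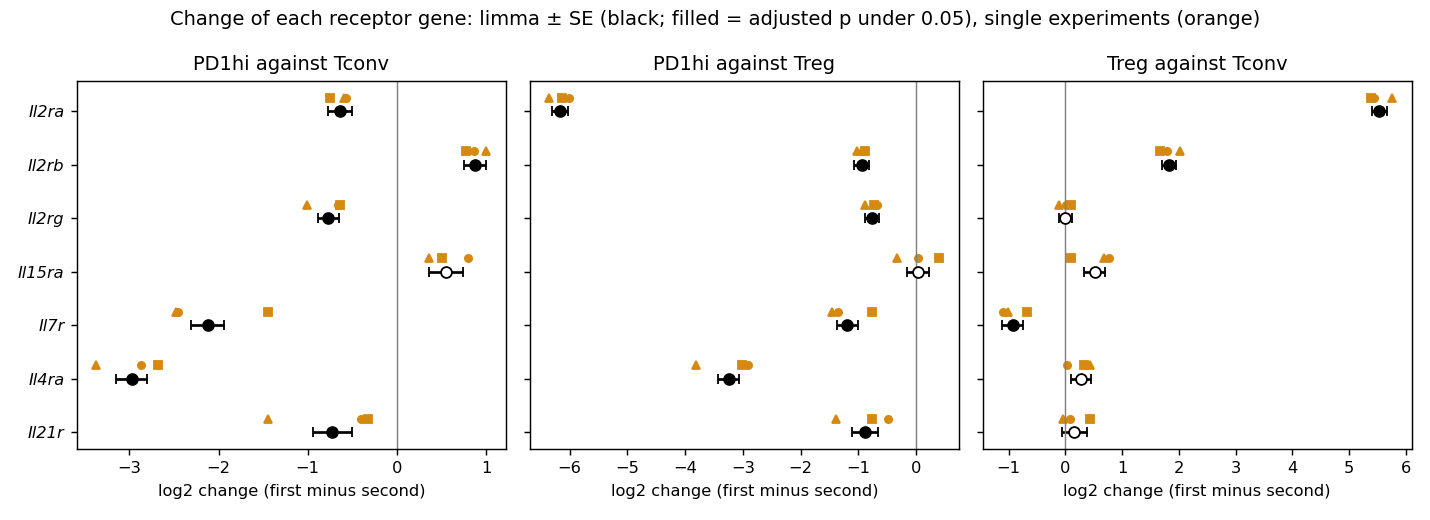
The log2 difference of each receptor gene in 3 comparisons (first population minus second), with the limma estimate ± SE in black, filled where the adjusted p is under 0.05, and the 3 single experiments in orange (circle, experiment 3; square, 5; triangle, 6). All 3 experiments have the sign of the estimate except for Il15ra in PD1hi against Treg and for Il2rg and Il21r in Treg against Tconv, where 2 of 3 do.

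Il7r, the IL-7 receptor alpha chain (CD127), was highest in Tconv, intermediate in Treg and lowest in PD1hi. Its scaled count was 3232, 5248 and 3433 in PD1hi of experiments 3, 5 and 6. In Treg it was 9220 and 7275 in experiment 3, 8916 in experiment 5, and 9106 and 9809 in experiment 6. In Tconv it was 17691 in experiment 3, 14692 and 13849 in experiment 5, and 18840 and 19321 in experiment 6. The libraries of the 3 populations did not overlap. The log2 difference was -2.12 ± 0.18 in PD1hi against Tconv (adjusted p = 6.05e-06), -1.19 ± 0.18 in PD1hi against Treg (adjusted p = 0.000667) and -0.93 ± 0.18 in Treg against Tconv (adjusted p = 0.00448). Experiment 5 gave the smallest difference in each comparison, -1.44, -0.76 and -0.68. The 300 bases around the start of Il7r (chr15:9529827-9530126, minus strand, GRCm38.p6, RefSeq) are shown beside those of Il2ra because the populations order these genes differently. The window is 45.7% GC with 1 CpG and holds 1 match to the STAT5 letters, in capitals, which describes the letters and shows no binding.
Il7r: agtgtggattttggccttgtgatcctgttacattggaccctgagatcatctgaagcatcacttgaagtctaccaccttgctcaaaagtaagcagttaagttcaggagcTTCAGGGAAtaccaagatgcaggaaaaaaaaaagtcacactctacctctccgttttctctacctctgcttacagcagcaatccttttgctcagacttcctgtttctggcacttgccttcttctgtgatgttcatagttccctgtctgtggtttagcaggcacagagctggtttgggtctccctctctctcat

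Within a library, the ratio of Il2ra to Il7r separated all 3 populations, and gene length does not enter its difference between libraries. The log2 ratio averaged -3.50 ± 0.43 in PD1hi, 1.48 ± 0.07 in Treg and -4.98 ± 0.34 in Tconv (SD, n = 3 experiments each). Over single libraries the ratio was 0.0645 to 0.117 in PD1hi, 2.61 to 3.20 in Treg and 0.0244 to 0.0431 in Tconv. The ratio was thus higher in every PD1hi library than in every Tconv library, while Il2ra itself was lower there. The log2 ratio of Il2ra to Il2rb averaged -5.39 ± 0.10 in PD1hi, -0.17 ± 0.05 in Treg and -3.87 ± 0.05 in Tconv, so PD1hi had the lowest share of the alpha chain beside the beta chain. The part of Foxp3+ cells left in the PD1hi or Tconv sort in that order was not tested. The log2 ratio of Il2ra to Il15ra, the private chains of IL-2 and IL-15, averaged -0.57 ± 0.16 in PD1hi, 5.64 ± 0.19 in Treg and 0.62 ± 0.31 in Tconv.

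**Figure D3:**
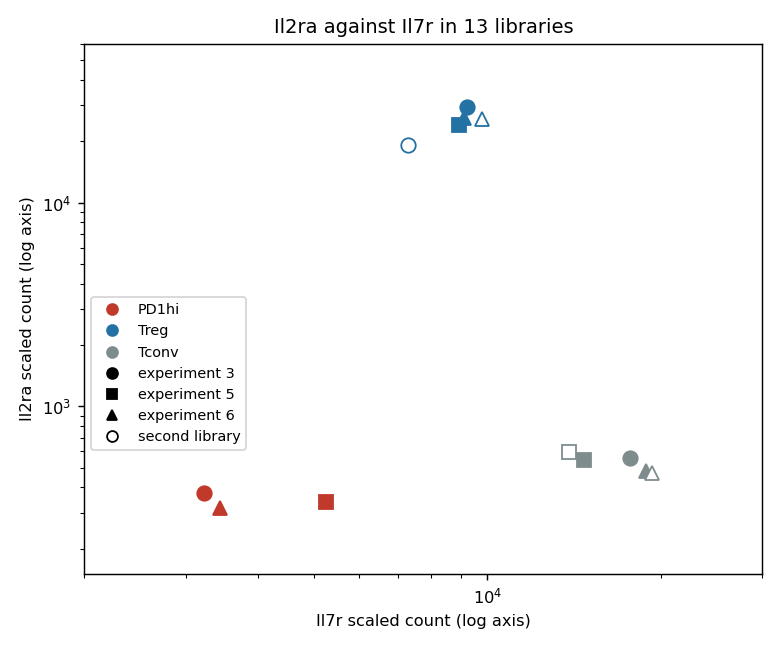
Scaled counts of Il2ra (vertical, log axis) against Il7r (horizontal, log axis) in the 13 libraries, coloured by population, with shapes for experiments and open symbols for second libraries. PD1hi is low on both axes, Treg is high for Il2ra, and Tconv is highest for Il7r, from 13849 to 19321.

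Il4ra, the IL-4 receptor alpha chain, showed the largest fall in PD1hi against Tconv among the 7 genes. The PD1hi libraries of experiments 3, 5 and 6 held 1289, 1466 and 886. The Treg libraries held 12941 and 6428 in experiment 3, 11896 in experiment 5, and 12931 and 11914 in experiment 6, and those of Tconv held 9459, then 10282 and 8552, then 9042 and 9300. Every PD1hi library lay below every other library, and Treg overlapped Tconv through the second library of experiment 3 alone. The log2 difference was -2.98 ± 0.18 in PD1hi against Tconv, or 7.87-fold lower (adjusted p = 4.41e-07), and -3.25 ± 0.18 in PD1hi against Treg (adjusted p = 2.27e-07). Treg minus Tconv was 0.27, with a 95% interval of -0.12 to 0.66 (adjusted p = 0.403). An antisense gene, Gm44876, overlaps Il4ra and is not listed in the table. The sources used here do not give the strand setting of the counting, so their reads cannot be told apart.

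Il21r, the IL-21 receptor, is the neighbouring protein-coding gene of Il4ra on chromosome 7, and it was also lower in PD1hi, by less and with more spread. Its scaled count was 2851, 3085 and 1585 in PD1hi of experiments 3, 5 and 6. In Treg it was 5185 and 2854 in experiment 3, 5220 in experiment 5, and 3962 and 4384 in experiment 6. In Tconv it was 3777 in experiment 3, 3695 and 4028 in experiment 5, and 4507 and 4121 in experiment 6. The PD1hi libraries lay below those of Tconv and overlapped those of Treg through the second library of experiment 3. The difference was -0.72 ± 0.22 in PD1hi against Tconv (adjusted p = 0.0295) and -0.88 ± 0.22 in PD1hi against Treg (adjusted p = 0.0158). Treg minus Tconv was 0.16, with a 95% interval of -0.32 to 0.64 (adjusted p = 0.738). Without PD1hi of experiment 6 the differences were -0.42 (adjusted p = 0.0381) and -0.58 (adjusted p = 0.0107). The call against Tconv was lost without Tconv of experiment 3, 5 or 6 (adjusted p = 0.065, 0.061 and 0.103) and in a fit of these 2 populations alone (0.0597), and the call against Treg without Treg of experiment 5 (0.0721).

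The promoters of this neighbouring pair are shown because both genes were lower in PD1hi. The Il4ra window (chr7:125552021-125552320, plus strand, GRCm38.p6, RefSeq) is 62% GC with 25 CpG dinucleotides and holds none of the 4 motifs. The Il21r window (chr7:125603179-125603478, plus strand) is 56% GC with 7 CpG dinucleotides and holds 1 match to the forkhead letters, in capitals.
Il4ra: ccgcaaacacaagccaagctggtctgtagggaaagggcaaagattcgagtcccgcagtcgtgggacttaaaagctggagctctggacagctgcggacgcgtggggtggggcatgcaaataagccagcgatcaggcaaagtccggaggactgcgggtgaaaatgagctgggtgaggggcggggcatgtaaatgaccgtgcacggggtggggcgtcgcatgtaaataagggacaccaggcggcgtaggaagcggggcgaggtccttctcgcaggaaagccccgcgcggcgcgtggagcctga
Il21r: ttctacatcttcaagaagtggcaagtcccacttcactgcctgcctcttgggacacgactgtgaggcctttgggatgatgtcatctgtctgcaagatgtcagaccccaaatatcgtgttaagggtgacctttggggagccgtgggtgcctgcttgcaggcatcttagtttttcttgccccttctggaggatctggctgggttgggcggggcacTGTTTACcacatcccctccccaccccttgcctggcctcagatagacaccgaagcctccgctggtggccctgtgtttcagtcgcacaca

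B cells are known for Il4ra and Il21r. The summed scaled count of 8 B cell markers was 205.1 to 363.8 in PD1hi, 557.3 to 1006 in Treg and 92.0 to 203.5 in Tconv, and none of the 8 lacked reads throughout a population. Cd79b, part of the B cell receptor, had a median of 145.5 in PD1hi, 642.3 in Treg and 58.2 in Tconv. The sum over 4 plasma cell markers, Igj, Xbp1, Sdc1 and Tnfrsf17, was 3495 to 6476 in PD1hi, 3764 to 7160 in Treg and 1692 to 2666 in Tconv. Igj made up most of this sum, with a median of 4292 in PD1hi, 4329 in Treg and 1451 in Tconv. Xbp1 had medians of 1443, 1020 and 588.2 in the same order. Sdc1 and Tnfrsf17 were low, with medians of 46.12, 14.049 and 12.828 for Sdc1 and 5.12, 5.62 and 3.20 for Tnfrsf17. Over the 8 myeloid and dendritic markers the sum was 1855 to 2355 in PD1hi, 1591 to 2699 in Treg and 1361 to 2295 in Tconv. Over the 6 erythroid and platelet markers the sum was 49.5 to 69.6, 43.1 to 71.1 and 8.55 to 44.8 in the same order. The 6 CD4 T cell markers summed to 145210 to 150460 in PD1hi, 88872 to 101900 in Treg and 110570 to 121090 in Tconv. Of these 6, 3 were called higher in PD1hi against Tconv, 4 higher in PD1hi against Treg and 1 lower in Treg against Tconv. Of 4 tested B cell genes, 1 was called in each comparison. These calls were higher in PD1hi than in Tconv, lower in PD1hi than in Treg and higher in Treg than in Tconv. Of 7 tested myeloid and dendritic genes, 1 was called higher and 1 lower in PD1hi against Tconv, and 1 lower in PD1hi against Treg. Of 3 tested plasma cell genes, 2, 0 and 2 were called higher in PD1hi against Tconv, PD1hi against Treg and Treg against Tconv. Of 6 tested CD8 T and NK genes, 2 were lower, 1 was higher and 1 lower, and 3 were lower, in the same order of comparisons. Over all genes tested, 26.1%, 16.5% and 14.4% were called in that order, so counts over so few markers give no result about such cells. The part of cells other than CD4 T cells in the receptor differences was not tested.

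Levels of different genes were compared per kb of exon, from GENCODE M21 lengths. In PD1hi the scaled count per kb was 9629 ± 680 for Il2rg, 3355 ± 152 for Il2rb, 1122 ± 314 for Il7r, 986.2 ± 317 for Il21r, 230.9 ± 56.6 for Il4ra, 222.6 ± 18.5 for Il15ra and 65.97 ± 6.0 for Il2ra (SD, n = 3). The ranges over experiments overlapped between Il7r and Il21r and between Il4ra and Il15ra. In Treg Il2ra moved up to the third place, with 16372 ± 449 for Il2rg, 6459 ± 43.1 for Il2rb, 4739 ± 191 for Il2ra, 2507 ± 171 for Il7r, 2156 ± 276 for Il4ra, 1759 ± 257 for Il21r and 218.7 ± 37.9 for Il15ra. There the ranges of Il7r and Il4ra, and of Il4ra and Il21r, overlapped. In Tconv Il7r was next to Il2rg, with 16393 ± 1165 for Il2rg, 4806 ± 699 for Il7r, 1829 ± 219 for Il2rb, 1779 ± 29.6 for Il4ra, 1567 ± 114 for Il21r, 152.6 ± 24.3 for Il15ra and 102.8 ± 9.81 for Il2ra, and only Il2rb and Il4ra overlapped among neighbours in that order. Il2rg thus had the highest level per kb in all 3 populations. With the exon lengths of the full annotation, an alternative chosen after seeing the data, the orders were the same except in Tconv, where Il2ra (93.7) stood above Il15ra (78.6).

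**Figure D4:**
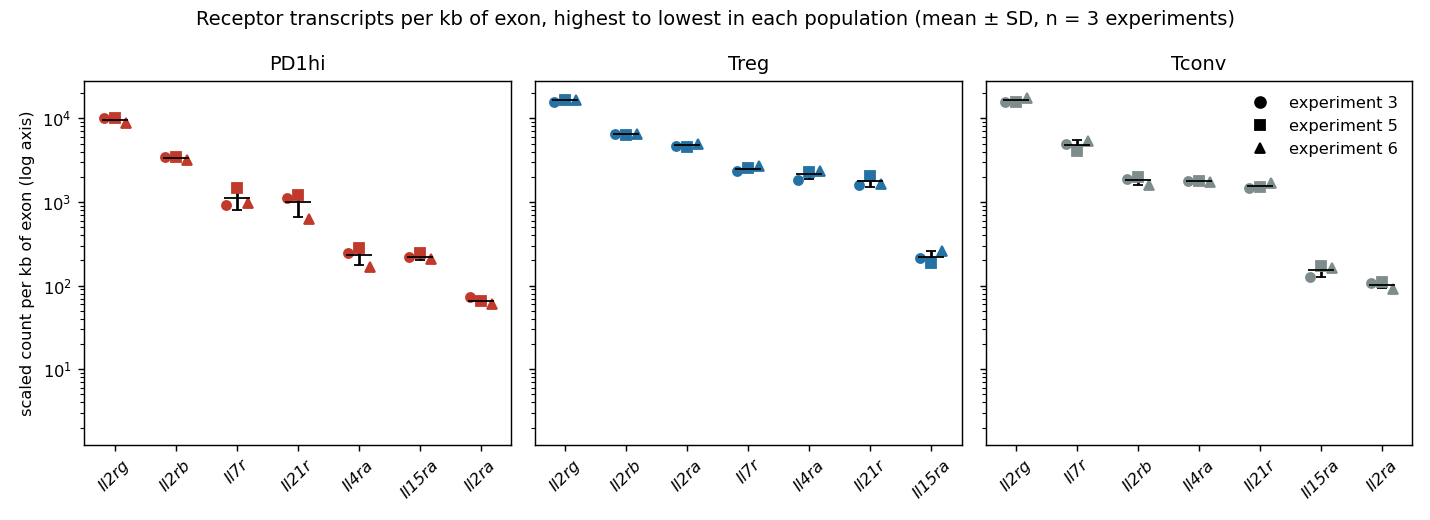
Scaled count per kb of exon (log axis) of the 7 receptor genes, ordered from highest to lowest within PD1hi, Treg and Tconv; symbols are experiments 3, 5 and 6, and bars are mean ± SD of 3 experiments. Il2ra is last in PD1hi and Tconv (65.97 and 102.8) and at the third place in Treg (4739).

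For each receptor, the tested genes with the most similar pattern over the 9 log2 values (highest Pearson r, a description over 3 populations of 3 experiments) were listed. For Il2ra they were A630091E08Rik, Coro2a and Gpr83, each with r of 0.99. A630091E08Rik had no read in PD1hi or Tconv and a mean of 36.5 in Treg, so it passed the filter on low values through Treg alone. A gene read in Treg only has a high r with Il2ra whatever its level, so such an r is no support for a link. Gpr83, an orphan G protein-coupled receptor, averaged 439.2 in PD1hi, 8800 in Treg and 514.1 in Tconv. For Il2rb they were AW112010, Gm2897 and Tnfrsf9, the costimulatory receptor 4-1BB, which averaged 1566 in PD1hi, 5555 in Treg and 493.3 in Tconv. For Il2rg they were BC094916, Gm12107 (0.68 in PD1hi, 30.7 in Treg and 27.0 in Tconv, so near the filter) and the ubiquitin-like protease Usp18. For Il4ra they were Cnr2 (a cannabinoid receptor), Usp18 again and Tdrkh. Cnr2 averaged 82.8 in PD1hi, 1199 in Treg and 954.4 in Tconv. For Il7r they were Prf1 (perforin), the kinase Txk and Gpr132. Txk averaged 645.0 in PD1hi, 2206 in Treg and 5421 in Tconv. For Il15ra they were Zfp449, Cpped1 and Gm10858, with r of 0.93, the lowest of the 7 lists, and for Il21r Thrb, Traf6 and Klhl12, with r from 0.98 to 0.99. Among the receptors themselves, Il2rg and Il4ra had the highest r, 0.99 over the 9 values, and Il7r and Il15ra the lowest, -0.67.

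Of 48 other genes of the pathway, 46 were listed in the table and tested, and Il9 and Tslp are not reported here. In PD1hi against Tconv 7 of the 46 were higher and 11 lower, in PD1hi against Treg 9 were higher and 9 lower, and in Treg against Tconv 5 were higher and 9 lower. The shares of all genes called are those given above. Of these 50 calls, 38 held under each of the 19 alternative settings that gave a value (Gab2 gave none at a minimum mean of 50), and the 12 that did not are named as such where they are described. The 38 include the calls of Gab2, which passed the filter on low values through PD1hi alone. Among the settings, rescaling by recomputed median ratios returned the reported fit unchanged and could not lose a call.

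**Figure D5:**
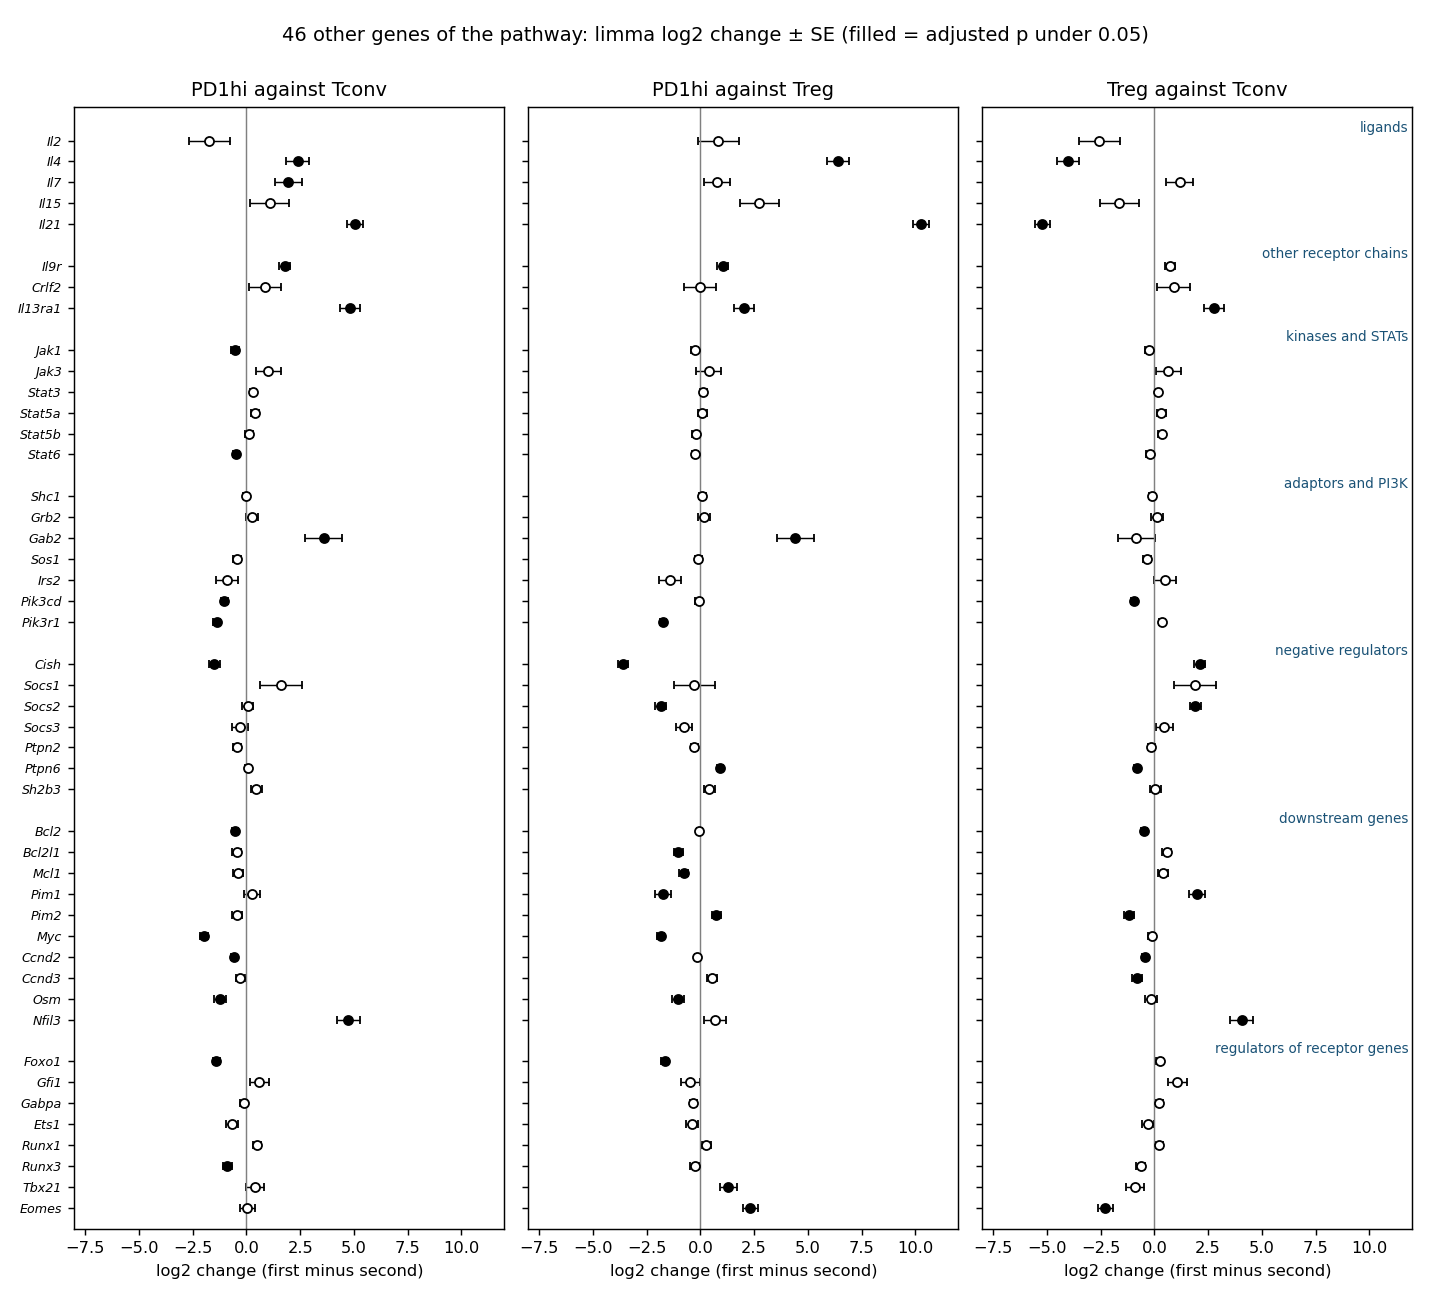
The log2 difference ± SE of 46 other pathway genes in 3 comparisons (first population minus second), grouped by role and filled where the adjusted p is under 0.05. Il21, Il4, Il13ra1, Gab2 and Nfil3 lie farthest to the right in PD1hi against Tconv, at 2.39 or more, and the STAT factors lie between -0.48 and 0.40 in all 3 comparisons.

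Among the ligands, Il21 and Il4, the cytokines of follicular helper cells, were higher in PD1hi than in both other populations. Il21 was 4063, 3072 and 2754 in PD1hi of experiments 3, 5 and 6, against at most 2.82 in any Treg library and 58.2 to 157.7 in Tconv. Only 8 reads of it were found in the 5 Treg libraries together. Its difference was 10.25 ± 0.36 in PD1hi against Treg (adjusted p = 6.71e-09), 5.04 ± 0.36 in PD1hi against Tconv (adjusted p = 1.59e-06) and -5.21 ± 0.36 in Treg against Tconv (adjusted p = 2.75e-06). Il4 averaged 435.4 ± 83.9 in PD1hi, 5.63 ± 6.10 in Treg and 83.3 ± 22.1 in Tconv, with differences of 6.40 ± 0.53 in PD1hi against Treg (adjusted p = 5.45e-06), 2.39 ± 0.53 in PD1hi against Tconv (adjusted p = 0.00514) and -4.01 ± 0.53 in Treg against Tconv (adjusted p = 0.000284). The receptors of both cytokines, Il21r and Il4ra, were lower in PD1hi, as given above. Near 0 the log2 size depends on the added count: with a pseudocount of 10, Treg against Tconv was -3.20 for Il21 and -2.61 for Il4.

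The other ligands were low. Il2 was 82.0, 55.6 and 3.26 in PD1hi of experiments 3, 5 and 6, 4.70 to 28.1 in Treg and 70.4 to 113 in Tconv. It passed the test in none of the comparisons. Every Treg library lay below every Tconv library, at -2.56 ± 0.95 (adjusted p = 0.107), and this was called without PD1hi of experiment 6 (adjusted p = 0.00473), in a fit of these 2 populations alone (0.0114), with a pseudocount of 10 (0.0484) and with duplicateCorrelation (0.0361). PD1hi minus Treg was also called without PD1hi of experiment 6 (2.17, adjusted p = 0.0246), where Il2 stood on 3 reads. Il15 averaged 37.9 ± 8.23 in PD1hi, 8.86 ± 8.32 in Treg and 18.9 ± 9.43 in Tconv, and did not pass either, at 2.73 ± 0.91 in PD1hi against Treg (adjusted p = 0.0627), but this was called without Treg of experiment 3 (3.52, adjusted p = 0.0293) and under 3 other settings. Il7, made mainly by stromal cells, averaged 40.7 ± 32.2 in PD1hi, 18.3 ± 4.23 in Treg and 7.41 ± 1.14 in Tconv, where PD1hi was called higher than Tconv (1.95 ± 0.62, adjusted p = 0.0374) although the libraries overlapped. That call was lost under 9 of the 19 alternatives, among them experiment as a block (adjusted p = 0.0532) and leaving out PD1hi of experiment 3 or 5, Treg of experiment 6 or any experiment of Tconv (adjusted p up to 0.136). Without PD1hi of experiment 3 or 6 the difference was 1.33 or 2.67.

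Of the other receptor chains, Il13ra1 and Il9r were called higher in PD1hi than in both other populations. Il13ra1, which joins Il4ra to bind IL-4 and IL-13 without the gamma chain, was 303.4, 279.9 and 250.1 in PD1hi of experiments 3, 5 and 6. It was 21.5 to 93.8 in Treg and 2.57 to 18.1 in Tconv. It was higher in PD1hi than in Tconv by 4.81 ± 0.46 (adjusted p = 1.17e-05), higher in PD1hi than in Treg by 2.04 ± 0.46 (adjusted p = 0.00846) and higher in Treg than in Tconv by 2.77 ± 0.46 (adjusted p = 0.0014). Il9r, the IL-9 receptor, averaged 554.8 ± 172 in PD1hi, 263.6 ± 56.3 in Treg and 157.5 ± 19.2 in Tconv. PD1hi was higher than Tconv (1.77 ± 0.25, adjusted p = 0.000261) and than Treg (1.05 ± 0.25, adjusted p = 0.0134). The call against Treg was lost without PD1hi of experiment 3 (0.82, adjusted p = 0.0546) or Treg of experiment 6 (0.90, adjusted p = 0.0643). Treg minus Tconv was 0.73 ± 0.25 (adjusted p = 0.0844), called with experiment as a block (adjusted p = 0.0247), without PD1hi of experiment 6 (0.0355) and under 2 other settings. Crlf2, the TSLP receptor, varied widely between experiments (35.9 to 144.5 in PD1hi, 28.0 to 205 in Treg and 14.2 to 77.9 in Tconv) and did not pass. Experiment 5 gave its highest value in each population (144.5, 205 and 70.1).

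Of the kinases and STAT factors, Jak1 and Stat6 were called, both in PD1hi against Tconv. Jak1 averaged 25267 ± 5555 in PD1hi, 30208 ± 3728 in Treg and 35988 ± 2032 in Tconv, and Stat6, which acts below Il4ra, averaged 7961 ± 1027 in PD1hi, 9524 ± 1407 in Treg and 11089 ± 1138 in Tconv. Both were called lower in PD1hi than in Tconv, Jak1 at -0.53 ± 0.17 (adjusted p = 0.0361) and Stat6 at -0.48 ± 0.15 (adjusted p = 0.0328). Jak1 lost the call under 8 alternatives and Stat6 under 6, among them rescaling to equal totals and leaving out PD1hi of experiment 3 or 6, Tconv of experiment 3 or Tconv of experiment 6. Jak1 also lost it without Treg of experiment 5 or Tconv of experiment 5, with adjusted p up to 0.114 for Jak1 and 0.135 for Stat6. Jak3, Stat3, Stat5a and Stat5b passed the test in none of the comparisons. In PD1hi against Tconv, Stat3 was called with equal totals (0.46, adjusted p = 0.0291) and Stat5a without PD1hi of experiment 6 (0.57, adjusted p = 0.0473). Jak3 spread from 1050 to 2901 in PD1hi, 747.3 to 3112 in Treg and 419.1 to 2070 in Tconv. Experiment 5 was the highest in each population (2901, 3112 and 1917), a shared shift that the reported fit does not model. For Jak3, PD1hi minus Tconv, 1.02 ± 0.59 (adjusted p = 0.234), was called only with experiment as a block (adjusted p = 0.0101). The 95% interval of Treg minus Tconv was -0.12 to 0.76 for Stat5a and -0.05 to 0.72 for Stat5b.

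Among the negative regulators, Cish, a SOCS family gene that is induced by STAT5, followed the order of Il2ra. It was 262.4, 479.9 and 250.1 in PD1hi of experiments 3, 5 and 6, against 3375 to 4360 in Treg and 721 to 1156 in Tconv, with no overlap. Its log2 difference was -3.59 ± 0.24 in PD1hi against Treg (adjusted p = 1.07e-06), -1.49 ± 0.24 in PD1hi against Tconv (adjusted p = 0.000689) and 2.10 ± 0.24 in Treg against Tconv (adjusted p = 0.000104). Socs2, of the same family, averaged 163.9 ± 31.1 in PD1hi, 593.2 ± 105 in Treg and 161.2 ± 53.9 in Tconv, and was called in both comparisons with Treg (-1.85 ± 0.26, adjusted p = 0.000333, in PD1hi against Treg; 1.91 ± 0.26, adjusted p = 0.000366, in Treg against Tconv). Ptpn6, the phosphatase SHP-1, averaged 8688 ± 470 in PD1hi, 4687 ± 491 in Treg and 8332 ± 1076 in Tconv, so that PD1hi was higher than Treg (0.89 ± 0.13, adjusted p = 0.000541) and Treg lower than Tconv (-0.83 ± 0.13, adjusted p = 0.00122).

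Among adaptors and PI3K genes, the regulatory subunit Pik3r1 was lower in PD1hi than in Tconv (-1.39 ± 0.14, adjusted p = 2.32e-05) and than in Treg (-1.75 ± 0.14, adjusted p = 5.58e-06). The catalytic subunit Pik3cd was lower than Tconv in PD1hi (-1.02 ± 0.15, adjusted p = 0.000353) and in Treg (-0.94 ± 0.15, adjusted p = 0.00119). The adaptor Gab2 averaged 41.6 ± 14.8 in PD1hi, 1.405 ± 2.04 in Treg and 3.57 ± 4.32 in Tconv. It stood on 9 reads in Treg and 12 in Tconv, so it passed the filter on low values through PD1hi alone. Its calls are tied to that filter and describe levels only. Gab2 was higher in PD1hi than in Tconv (3.59 ± 0.85, adjusted p = 0.00754) and than in Treg (4.42 ± 0.85, adjusted p = 0.00302), and with a pseudocount of 10 these were 1.93 and 2.15. No library of a population with a call overlapped those of its comparison for these 3 genes.

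Of the downstream genes, Myc, a driver of cell growth, averaged 811.9 ± 151 in PD1hi, 2924 ± 449 in Treg and 3171 ± 277 in Tconv, and was lower in PD1hi than in Tconv (-1.98 ± 0.17, adjusted p = 6.26e-06) and than in Treg (-1.85 ± 0.17, adjusted p = 1.35e-05). The kinase Pim1 averaged 193.9 ± 106 in PD1hi, 580.5 ± 87.3 in Treg and 148.1 ± 44.6 in Tconv, lower in PD1hi than in Treg (-1.72 ± 0.37, adjusted p = 0.00663) and higher in Treg than in Tconv (2.0 ± 0.37, adjusted p = 0.00304). Its relative Pim2 was lower in Treg than in Tconv (-1.20 ± 0.23, adjusted p = 0.00336). The transcription factor Nfil3 averaged 302.5 ± 124 in PD1hi, 186.3 ± 62.2 in Treg and 12.03 ± 7.65 in Tconv, higher than Tconv in PD1hi (4.73 ± 0.53, adjusted p = 3.9e-05) and in Treg (4.06 ± 0.53, adjusted p = 0.00026). The cytokine gene Osm was lower in PD1hi than in Tconv (-1.22 ± 0.28, adjusted p = 0.0065) and than in Treg (-1.04 ± 0.28, adjusted p = 0.0237). The call against Treg was lost without PD1hi of experiment 3, Treg of experiment 3 or Treg of experiment 5 (adjusted p = 0.0813, 0.0639 and 0.103).

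Some calls of downstream genes were fragile. Pim2 was called higher in PD1hi than in Treg (0.74 ± 0.23, adjusted p = 0.0424), which was lost in a fit of these 2 populations alone and without PD1hi of experiment 3 or 5, Treg of experiment 3 or 6, or Tconv of experiment 3 or 6 (adjusted p up to 0.161). Mcl1, a survival gene, was called lower in PD1hi than in Treg (-0.78 ± 0.23, adjusted p = 0.0351) although the libraries overlapped. It lost the call without PD1hi of experiment 3 or 5, Treg of experiment 3 or 5, or Tconv of experiment 3 or 6 (adjusted p up to 0.137) and under 3 other settings. Bcl2, also a survival gene, was called lower than Tconv in PD1hi (-0.53 ± 0.13, adjusted p = 0.0105) and in Treg (-0.48 ± 0.13, adjusted p = 0.0276). Rescaling to equal totals took away both calls (adjusted p = 0.0554 and 0.0613), and the call in Treg was lost without Treg of experiment 3 or 5 or Tconv of experiment 3 or 5 (adjusted p up to 0.111). The D cyclins Ccnd2 (-0.45 ± 0.11, adjusted p = 0.0144) and Ccnd3 (-0.81 ± 0.23, adjusted p = 0.0356) were called lower in Treg than in Tconv. Ccnd2 lost the call without experiment 5 or 6 of either population (adjusted p up to 0.0624). Ccnd3 lost it with equal totals and without Treg of experiment 3 or 6 or Tconv of experiment 3 or 5 (adjusted p up to 0.140). Ccnd2 was also called lower in PD1hi than in Tconv (-0.59 ± 0.11, adjusted p = 0.00151). The downstream gene Bcl2l1 was called lower in PD1hi than in Treg (-1.03 ± 0.21, adjusted p = 0.00473). Both of these calls held under all alternatives.

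Among known regulators of the receptor genes, Foxo1, a forkhead factor required for Il7r expression in mouse T cells, was 2105, 1871 and 1886 in PD1hi of experiments 3, 5 and 6. It was 5031 to 8061 in Treg and 4068 to 5987 in Tconv. The log2 difference of Foxo1 was -1.41 ± 0.17 in PD1hi against Tconv (adjusted p = 6.34e-05) and -1.66 ± 0.17 in PD1hi against Treg (adjusted p = 2.65e-05). Treg overlapped Tconv, at 0.25 ± 0.17 (adjusted p = 0.419). Runx3 averaged 444.8 ± 79.6 in PD1hi, 532.0 ± 89.4 in Treg and 823.0 ± 166 in Tconv and was called lower in PD1hi than in Tconv (-0.88 ± 0.21, adjusted p = 0.00739). Eomes, a T-box factor known to act on Il2rb, averaged 190.0 ± 74.6 in PD1hi, 34.9 ± 1.45 in Treg and 175.6 ± 38.7 in Tconv. It was higher in PD1hi than in Treg (2.32 ± 0.33, adjusted p = 0.00039) and lower in Treg than in Tconv (-2.28 ± 0.33, adjusted p = 0.000613). The related Tbx21 was called higher in PD1hi than in Treg (1.30 ± 0.41, adjusted p = 0.0479). That call was lost without a filter on low values (adjusted p = 0.05002), without PD1hi of experiment 3 or 5, without Treg of experiment 3 or 6 and without Tconv of experiment 3, with adjusted p up to 0.174.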

How the data were processed

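Per the labels' protocols, RNA was taken up in Trizol, depleted of ribosomal RNA and made into libraries with an Ion Total RNA-seq kit. The submitters' processing notes name Picard, HTSeq 0.5.4, limma and the builds hg19, GRCh37 and mm9. The sources used here do not give the aligner, what each build was for or the strand setting. The authors deposited the unit signal: counts scaled by size factors, per the labels, with 1 added. After subtraction of 1, each value divided by a library constant was whole to within 0.001 reads, which gave the depths. The recovered reads were used in 1 alternative (limma voom), and no other count model was run.

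Libraries of one experiment and population were averaged to 9 values. Genes whose mean scaled count reached 10 were tested with limma 3.58.1 in R 4.3.3 (trend on mean level, 2-sided, 1 variance for the 3 populations), checked on simulated data. The titles name the experiment, which links the populations. Within an experiment, deviations from population means correlated at -0.07 to 0.30 (median 0.17, 9 pairs). Between experiments they correlated at -0.27 to 0.13 (median -0.11, 18 pairs). Deviations sum to 0 over the 3 experiments of a population, so these 2 sets of values are tied and are not separate results. With experiment as a replicate block, 3974, 2579 and 2204 genes were called, against 3700, 2346 and 2039 without it, in PD1hi against Tconv, PD1hi against Treg and Treg against Tconv.

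Named genes were all receptors, ligands, other chains, kinases and STATs. Up to 3 called genes per remaining group with the largest change, and the 3 genes most like each receptor, were also named. Genes named besides because they lost a call, and Bcl2l1, were chosen after their values were seen. Members and lists were chosen with earlier results of these data known. Promoters are from RefSeq (GRCm38.p6) and exon lengths from GENCODE M21 (basic set); Il2rb has no promoter shown.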

Additional observations from a re-analysis of the deposited data

Results flagged for a closer look

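Il4ra in the second Treg library of experiment 3 lay apart from the other Treg libraries: its scaled count was 6428, against 11896 to 12941 in the other 4, a gap of 0.84 of the whole range beyond a critical value of 0.71 for 5 libraries. It was the only such value among 14 groups of 5 libraries tested for the 7 receptors. Chance gives about 1 in 20 per group, so 1 such value in 14 groups is not unusual. The 5 libraries of a group include pairs of the same experiment, so the critical value for independent values holds only roughly. This second Treg library of experiment 3 differed from its pair with a chi-square of 73.5 per degree of freedom. With Treg of experiment 3 taken from its first library alone, Il4ra in PD1hi against Treg was still called and Treg against Tconv was not.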

How the results depend on the processing

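Of 399 receptor values (21 results under 19 alternatives), 382 kept their direction and side of the threshold, 5 lost a call (Il21r), 4 gained one (Il15ra) and 8 changed sign. Part of the 382 was fixed in advance. Rescaling by recomputed median ratios returned the reported fit unchanged (3700, 2346 and 2039 genes called), so its 21 values could not move. Leaving out an experiment of the population not compared can change the p-value of a difference but not its size or sign. The sign changes were in differences near 0. Il2rg in Treg against Tconv was -0.011 with all 13 libraries and duplicateCorrelation and -0.0039 with limma voom on recovered reads, and leaving out single experiments gave -0.031 to 0.058. Leaving out single experiments gave -0.079 to 0.17 for Il15ra, -0.62 to 0.78 for Crlf2, -0.0081 to 1.01 for Jak3 and -0.11 to 0.25 for Stat5a in PD1hi against Treg, and -0.020 to 0.24 for Stat5b in PD1hi against Tconv. Crlf2 in PD1hi against Treg was 0.046 with equal totals, 0.17 with duplicateCorrelation, 0.051 with only the first Treg library of experiment 3 and 0.20 with voom, and Stat5a was -0.0082 with only that first library. Of 1645 values of the other named genes, 68 lost a call, 16 gained one and 12 changed sign. Genes with a mean under 50 gave no value where that minimum was set. The cause of these changes was not tested. With experiment as a replicate block no receptor call changed. Total counts of called genes, receptors and pathway genes stayed within 1.5 times the reported ones under all alternatives, but some counts in 1 direction did not. Genes called lower in Treg than in Tconv numbered 498 without Tconv of experiment 3 and 523 without Treg of experiment 5 or Tconv of experiment 6, against 802. Receptors called higher in PD1hi than in Tconv numbered 2 with Il15ra added, against 1, and pathway genes called higher in Treg than in Tconv numbered 8 without PD1hi of experiment 6, against 5. At these depths Il2 and Il15 rest on 60 to 420 reads per population, and Il7 on 36 to 119. PCR reads are not independent molecules, so read counts overstate the molecules behind them.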
